A study of Raphidocelis subcapitata with 270 samples.

Results

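Cetirizine hydrochloride and fexofenadine are antihistamines, and the responses of one alga to each were set side by side over all measured genes. The libraries were chosen by the chemical in their labels: 21 libraries of cetirizine hydrochloride (called cetirizine below), 21 of fexofenadine, and the 3 DMSO libraries that belong to each compound, which makes 48 of the 270 libraries of the series. The organism was Raphidocelis subcapitata, a single-celled green alga of fresh water and a common test species, taken in exponential growth and exposed for 24 h at 24 °C in multiwell plates. Poly(A) RNA was read from its 3′ end, so that counts depend little on transcript length. Each compound had 7 labelled levels, D1 to D7, with libraries A, B and C at each level.

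Cetirizine was set against DMSO libraries A, B and C of the control set that it shares with fipronil carboxamide (set 7-8), and fexofenadine against those that it shares with cis-nonachlordane (set 9-10). All 16 groups are the same algal species at the same stage, temperature and exposure time. No genotype is named in the labels, and the strain is not given here. The series describes a half-log dilution series that typically ran from 66.7 to 0.021 µM, but the concentration of a given level, the end of the series that D1 stands for, and the share of DMSO in the treated wells are not known from those sources. Levels of the 2 compounds are therefore matched by label only. The labels do not say whether libraries A, B and C were grown apart. The p-values therefore reflect only how far such libraries differ, and that spread may be technical.

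In animals both compounds block the histamine receptor that mediates allergic symptoms, and both are excreted largely unchanged, which is how such drugs reach surface water. Both carry a pair of aromatic rings on one side of a basic ring and a carboxylic acid on the other, and both are zwitterions near neutral pH. They differ in the basic ring, a piperazine in cetirizine and a piperidine in fexofenadine, and in the aromatic end, a chlorinated benzhydryl group in cetirizine and a hydroxydiphenylmethyl group in fexofenadine. The files give gene identifiers without names, so no role can be given for the genes below.

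The cetirizine table held between 888707 and 1073499 counts per library and the fexofenadine table between 1124694 and 1909938, with medians of 1011560 and 1462091. Of 13429 genes, 9160 were tested in cetirizine and 9564 in fexofenadine. Levels are given as CPM, a gene's counts set to the same total in every library with TMM scaling, done in each compound's table on its own, so a level in one compound and a level in the other were scaled separately. A gene is called where its adjusted p was under 0.05 by the quasi-likelihood test of edgeR. The common biological coefficient of variation, the typical relative spread between libraries of one group, was 0.1403 for cetirizine and 0.1124 for fexofenadine.

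In the fit by group alone few genes were called in either compound, at 7 levels of cetirizine and at D1 alone of fexofenadine. These counts depended on the settings of the fit. At D1 61 genes differed from DMSO in cetirizine, 30 higher and 31 lower, which is 0.666% of the genes tested. In fexofenadine 40 genes differed at D1, 8 higher and 32 lower, or 0.418%. Changes over 2-fold were seen in 10 of the 61 cetirizine genes and in 9 of the 40 fexofenadine genes. All 3 D1 libraries stood on one side of all 3 DMSO libraries in 61 of the 61 cetirizine genes and 39 of the 40 fexofenadine genes, while the same held for 13.8% and 13.2% of all genes tested. The called genes were chosen on these same libraries, so the shares are a description. Counts of called genes moved when single libraries were left out, in fits that also had fewer libraries. Without DMSO B cetirizine had 30 higher and 39 lower, and without DMSO A fexofenadine had 11 higher and 41 lower. Other counts fell. The cetirizine count was 34 without DMSO A, 37 without D1 A and 21 without D1 B, and the fexofenadine count was 1 without DMSO B, 8 without D1 B and 13 without D1 C. Fitting all 48 libraries together gave 75 genes for cetirizine and 10 for fexofenadine. With a term for the library letter the order turned, and fexofenadine had more calls at D1 than cetirizine. The counts are given with the processing settings below.

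**Figure D1:**
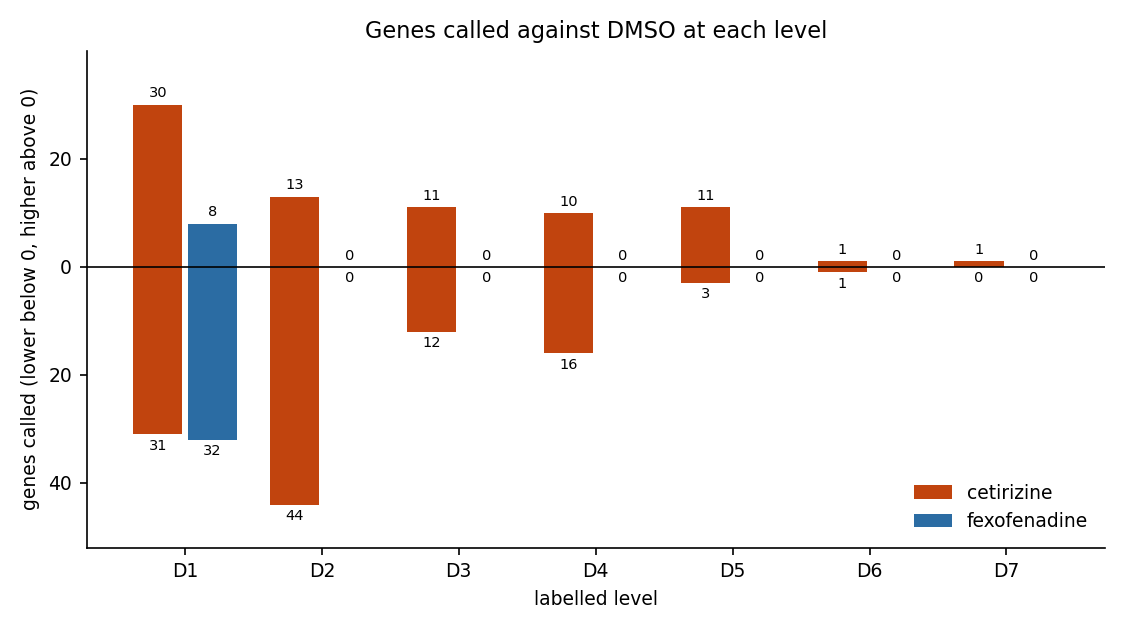
Number of genes called against DMSO (vertical axis) at levels D1 to D7 (horizontal axis) in cetirizine and fexofenadine, with genes higher than DMSO drawn above 0 and genes lower drawn below it. Cetirizine has called genes at all 7 levels, with 30 higher and 31 lower at D1, while fexofenadine has 8 higher and 32 lower at D1 and 0 at the other levels. These counts are from the fit by group alone. With a term for the library letter both compounds had called genes at all 7 levels.

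Beyond D1 cetirizine had 57 genes called at D2 (0.622%; 13 higher and 44 lower), 23 at D3 (0.251%), 26 at D4 (0.284%), 14 at D5 (0.153%), 2 at D6 (0.0218%) and 1 at D7 (0.0109%). In fexofenadine edgeR called 0 genes at each level from D2 to D7, that is 0%. Genes with an unadjusted p under 0.05 at these levels numbered 534, 530, 760, 656, 614 and 473 of the 9564 tested, and DESeq2 called 1 gene at D5 and 0 at the others. With no filter on low counts edgeR called 4, 5, 24, 10, 8 and 5 fexofenadine genes from D2 to D7, against 99, 42, 84, 45, 29 and 5 in cetirizine, and a fit with a term for the library letter also made calls at all of these levels in both compounds. In the test over all 7 levels together, 93 genes (1.02%) were called in cetirizine and 58 (0.606%) in fexofenadine. Without D1 B 60 genes were called over all levels in cetirizine, and in fexofenadine 37, 19 and 30 were called without D1 A, B and C.

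The cetirizine counts at the middle levels moved with single libraries too. At D3 they were 4, 7 and 3 without D3 A, B and C, and 4 and 8 without DMSO A and C. At D4 they were 15 and 7 without D4 B and C, and 45 and 16 without DMSO B and C. At D5 they were 7 and 5 without D5 A and B, and 4, 32 and 9 without DMSO A, B and C. At D6 they were 9 without D6 A, 0 without D6 B, and 9, 16 and 0 without DMSO A, B and C, and at D7 2 without DMSO B or C. In fexofenadine the counts at D2 to D7 stayed between 0 and 2 whichever DMSO library or library of that level was left out.

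Cetirizine's 2 largest rises at D1 were in Rsub_12322 and Rsub_00475, and its 2 largest falls in Rsub_03879 and Rsub_01112, among 38 genes that were also called over all levels. Rsub_04998, described below, fell further than Rsub_01112 at D1 (log2 fold change −1.30 ± 0.29, edgeR adjusted p = 0.011). It was not called over all levels (adjusted p = 0.0639). The rule that named the rises and falls admitted only genes whose D1 and DMSO libraries did not overlap, so the lack of overlap is no separate result. Rsub_12322 had 33.7, 47.9 and 34.4 CPM in cetirizine D1 libraries A, B and C, against 7.97, 9.93 and 9.60 CPM in DMSO. The groups did not overlap, and the log2 fold change was 2.06 ± 0.44 (SE; edgeR, adjusted p = 0.00544). Its adjusted p was 0.0808 without D1 B and 0.0532 without DMSO A. In fexofenadine the same gene had 10.5, 4.47 and 8.10 CPM at D1 against 4.21, 4.43 and 4.54 CPM in DMSO, a log2 fold change of 0.81 ± 0.50 with an adjusted p of 0.625.

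Rsub_00475 had 98.9, 116 and 135 CPM in cetirizine D1 libraries, against 49.8, 54.6 and 33.6 CPM in DMSO. Every D1 library was above every DMSO library, with a log2 fold change of 1.34 ± 0.22 (adjusted p = 0.000139), and the call held whichever D1 or DMSO library was left out. Its log2 fold change in fexofenadine at D1 was 0.35 ± 0.17 (adjusted p = 0.491).

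Rsub_03879 had 11.6, 14.9 and 17.2 CPM in cetirizine D1 libraries against 260, 62.6 and 128 CPM in DMSO. The DMSO libraries were spread widely, with A the highest and B the lowest, yet none overlapped the D1 libraries, and the log2 fold change was −3.36 ± 0.55 (adjusted p = 0.000139). At D2 the values were 63.5, 16.7 and 24.4 CPM, which overlapped DMSO B, with a log2 fold change of −2.09 ± 0.46 (adjusted p = 0.0117). From D3 to D7 library A stayed at 151 to 242 CPM and libraries B and C at 40.5 to 97.7 CPM, and no call was made. Rsub_01112, called in both compounds, is described with the shared genes.

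Cetirizine D2 had the most genes lower than DMSO of any level, 44, and 1 library stood out in them. D2 library B was the lowest of the 3 D2 libraries in 36 of the 44 genes (81.8%), against 36.5% of all genes tested. DMSO library A was the highest of the 3 DMSO libraries in 25 of the 44 (56.8%), against 36.0% of all genes. Without D2 B 2 genes were called at D2, and without DMSO A 19. In the 31 genes lower at D1 DMSO A was the highest DMSO library in 22 (71.0%). In the 30 genes higher at D1 it was the lowest in 18 (60.0%, against 33.5% of all genes). The part of these libraries in the calls beyond these values was not tested.

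A smaller set of cetirizine genes differed from DMSO across levels. All levels were set against the same DMSO libraries, so calls at several levels are not independent of each other. Of 125 genes called at 1 level or more, 37 were called at 2 or more, 14 at 3 or more and 5 at 4 or more, and 0 were called in both directions. Rsub_02655 was called at 6 levels, all but D6. Its 21 treated cetirizine libraries lay between 150 and 325 CPM, all above the DMSO values of 80.7, 143 and 106 CPM. The log2 fold change peaked at D3 with 1.46 ± 0.15 (adjusted p = 2.44e-09) and was 0.58 ± 0.16 at D6 (adjusted p = 0.203).

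Rsub_00270 was called at D3 to D6, with its highest level at D5, where the 3 libraries had 89.3, 101 and 84.6 CPM against 36.9, 34.8 and 33.6 CPM in DMSO. The D5 groups stood apart, with a log2 fold change of 1.38 ± 0.22 (adjusted p = 0.000143). Among falls, Rsub_09561 was called at 5 levels, D1 to D5. It had 584, 506 and 585 CPM at cetirizine D1 against 1163, 766 and 918 CPM in DMSO, a log2 fold change of −0.77 ± 0.11 (adjusted p = 3.44e-05), and −0.28 ± 0.11 at D7. Rsub_09236 was called at D1 to D4, with log2 fold changes between −0.46 and −0.56. At D4 its values were 703, 747 and 748 CPM against 1256, 897 and 1097 CPM in DMSO, with an adjusted p of 0.00552, or 0.0651 without DMSO A.

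In fexofenadine these 4 genes gave no call at any level in the fit by group alone, but the rises were of similar size in places. Rsub_02655 had log2 fold changes between 0.40 and 1.06 in fexofenadine, with SEs of 0.34 to 0.36, against SEs of 0.15 to 0.16 in cetirizine. Its fexofenadine DMSO libraries A, B and C had 42.7, 47.0 and 93.8 CPM. DMSO C lay above treated library A at every level but D4, so the groups overlapped at those levels. Yet each treated library lay above the DMSO library of its own letter at all 7 levels. The fit by group alone takes no account of the letter. The difference in log2 fold change between the compounds ran from −0.33 to 0.65 over the 7 levels, and the 95% intervals together spanned −1.13 to 1.46. Rsub_00270 had log2 fold changes between 0.84 and 1.08 in fexofenadine from D2 to D7. Each of its libraries at those levels also lay above the DMSO library of its own letter. For Rsub_09561 at D1 the difference between the compounds was −0.63 (95% interval −0.97 to −0.28, adjusted p = 0.436), and for Rsub_09236 at D4 −0.62 (−0.92 to −0.31, adjusted p = 0.436).

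**Figure D2:**
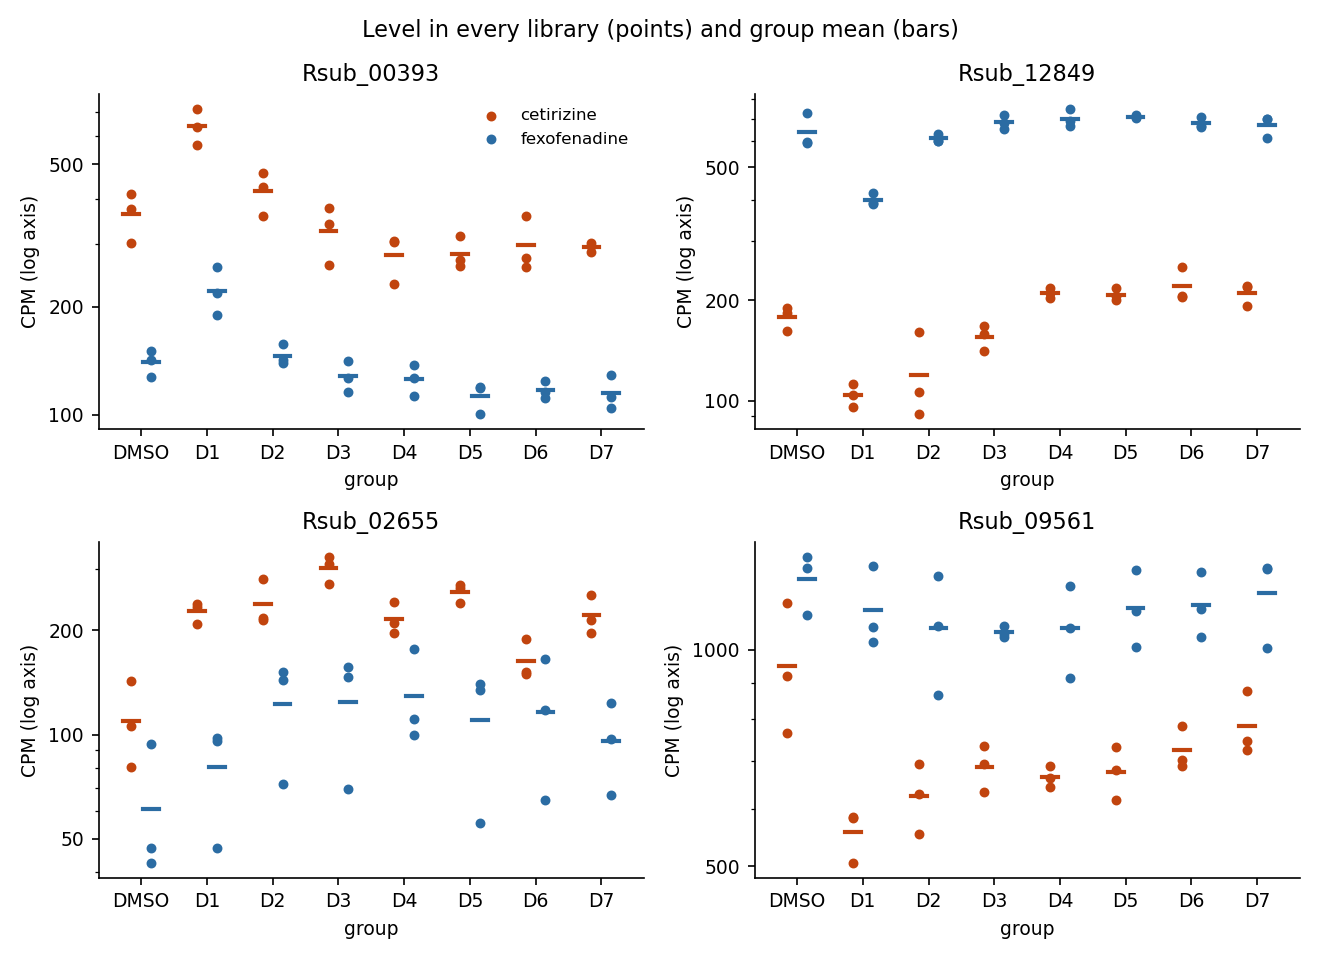
Level in CPM (log axis) of 4 genes in every library (points) with the mean of each group (short bars), for DMSO and levels D1 to D7, cetirizine left of fexofenadine in each group. Rsub_00393 and Rsub_12849 moved at D1 in both compounds, while Rsub_02655 and Rsub_09561 were called at 6 and 5 levels of cetirizine.

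Fexofenadine's named rises at D1 were Rsub_11267 and Rsub_04768, and both rose in cetirizine as well. Rsub_11267 had 60.9, 52.9 and 53.4 CPM at fexofenadine D1 against 36.1, 22.2 and 25.0 CPM in DMSO, a log2 fold change of 0.98 ± 0.23 (adjusted p = 0.0349), and in cetirizine the log2 fold change was 1.12 ± 0.19 (adjusted p = 0.000201). Its fexofenadine call was lost without any one of DMSO B, DMSO C and the 3 D1 libraries, with adjusted p between 0.0876 and 0.209. Rsub_04768 had 214, 235 and 155 CPM at fexofenadine D1 against 135, 86.9 and 115 CPM in DMSO, a log2 fold change of 0.82 ± 0.15 (adjusted p = 0.00458), and 0.72 ± 0.13 in cetirizine (adjusted p = 0.000508).

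The largest falls at fexofenadine D1 were in Rsub_09261 and Rsub_12711. The same rule named them and the rises above, so their lack of overlap is no separate result. Rsub_09261 had 24.2, 37.2 and 47.95 CPM at D1 against 63.8, 125 and 129 CPM in DMSO, without overlap, and a log2 fold change of −1.51 ± 0.31 (adjusted p = 0.0146). Rsub_12711 had 21.0, 14.2 and 14.2 CPM against 37.3, 60.3 and 40.1 CPM, a log2 fold change of −1.45 ± 0.26 (adjusted p = 0.00458). In cetirizine their D1 log2 fold changes were −0.25 ± 0.37 and −0.14 ± 0.31, with D1 and DMSO libraries overlapping. The difference of responses, cetirizine minus fexofenadine, was 1.27 (95% interval 0.21 to 2.33) for Rsub_09261 and 1.31 (0.46 to 2.16) for Rsub_12711, with adjusted p of 0.646 and 0.513. The fexofenadine calls of Rsub_04768, Rsub_09261 and Rsub_12711 were lost without DMSO B, with adjusted p between 0.0939 and 0.124, and without D1 B, with adjusted p between 0.0505 and 0.0618. That of Rsub_09261 was lost without D1 A or DMSO C as well, with adjusted p of 0.0710 and 0.0586. Among the 32 genes lower at fexofenadine D1, DMSO B was the highest DMSO library in 17 (53.1%, against 32.9% of all genes tested). In the fit by group alone no fexofenadine gene was called at more than 1 level. The next genes that the rule named, Rsub_00503, Rsub_12247 and Rsub_10428, had D1 log2 fold changes of 0.73 ± 0.17, −1.15 ± 0.26 and −1.35 ± 0.29, and all 3 lost their call without D1 B or DMSO B. Without D1 A Rsub_12247 and Rsub_10428 lost it, without D1 C Rsub_00503 and Rsub_12247, and without DMSO C Rsub_10428.

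At D1 7 genes were called in both compounds, all 7 in the same direction, which is 11.5% of cetirizine's calls and 17.5% of fexofenadine's. Over all levels 10 genes were called in both, 10.8% and 17.2%, by a test that has no direction. Rsub_12711 is among them, though it fell at fexofenadine D1. Its largest change in cetirizine was a rise at D5, with a log2 fold change of 0.92 ± 0.29 (edgeR, adjusted p = 0.198). The shared rises named by the same rule were Rsub_00393 and Rsub_09770, and the shared falls Rsub_12849 and Rsub_01112. Rsub_00393 had 714, 636 and 567 CPM at cetirizine D1 against 302, 376 and 413 CPM in its DMSO libraries, and 258, 218 and 190 CPM at fexofenadine D1 against 151, 142 and 127 CPM. Both pairs of groups stood apart, with log2 fold changes of 0.81 ± 0.13 in cetirizine and 0.66 ± 0.12 in fexofenadine. By D5 it lay below DMSO in both, with log2 fold changes of −0.37 and −0.31 that were not called. Its fexofenadine call had adjusted p of 0.0514 without D1 A and 0.0910 without DMSO B. Rsub_09770 had 1621, 1706 and 1655 CPM at cetirizine D1 against 977, 1356 and 1328 CPM, and 692, 787 and 603 CPM at fexofenadine D1 against 467, 408 and 533 CPM. Its groups stood apart in both compounds, with log2 fold changes of 0.44 ± 0.10 and 0.56 ± 0.11. The cetirizine call was lost without D1 B or DMSO A, with adjusted p of 0.0698 and 0.222, and the fexofenadine call without D1 B or DMSO B, with adjusted p of 0.0863 and 0.138.

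Rsub_12849 had 104, 95.8 and 112 CPM at cetirizine D1 against 189, 183 and 161 CPM in DMSO, and 390, 387 and 419 CPM at fexofenadine D1 against 597, 730 and 592 CPM. All D1 libraries were below all DMSO libraries in each compound, and the log2 fold changes were −0.77 ± 0.16 and −0.68 ± 0.09. The cetirizine call had an adjusted p of 0.0698 without D1 B. Rsub_01112 had 58.9, 26.6 and 33.3 CPM at cetirizine D1 against 115, 84.4 and 63.4 CPM, and 44.6, 32.8 and 22.3 CPM at fexofenadine D1 against 87.8, 88.7 and 49.9 CPM. Its log2 fold changes were −1.13 ± 0.28 and −1.18 ± 0.22, without overlap in either compound. The cetirizine call was lost without D1 B, D1 C, DMSO A or DMSO B, with adjusted p between 0.0509 and 0.291, and the fexofenadine call without D1 C or DMSO B, with adjusted p of 0.0730 and 0.0910. For the 7 genes called in both at D1, the difference between the compounds lay between −0.24 and 0.15 on the log2 scale, and all 7 of its 95% intervals, from −0.71 to 0.80 at their widest, included 0. Of the 7, 3 were left without cetirizine D1 B, 4 without cetirizine DMSO A, 3 and 4 without fexofenadine D1 B and C, and 1 without fexofenadine DMSO B.

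**Figure D3:**
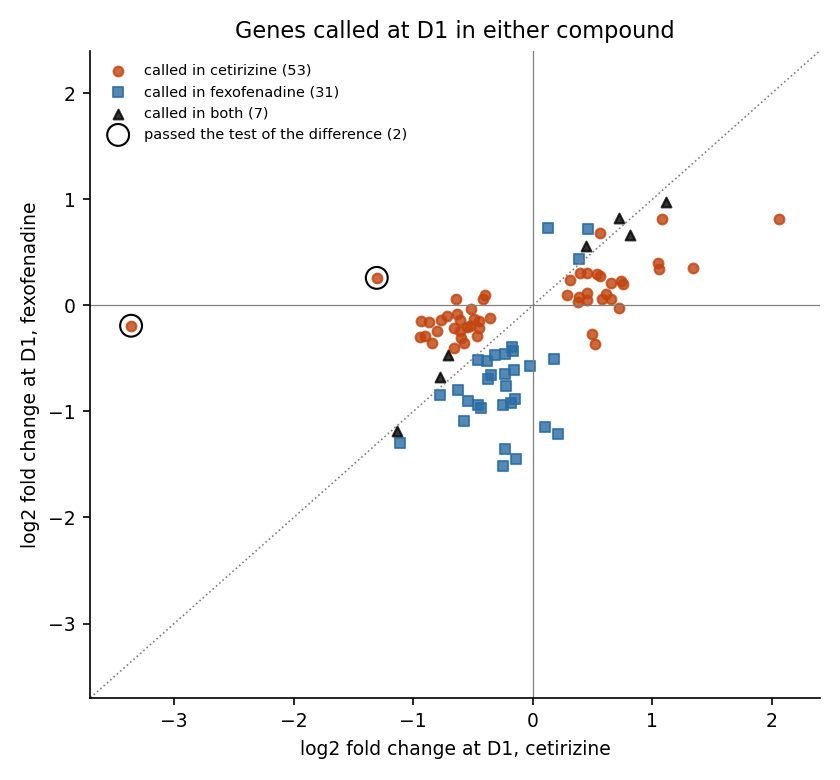
Log2 fold change against DMSO at D1 in cetirizine (horizontal axis) and fexofenadine (vertical axis) for the 91 genes called in either compound and tested in both, with a dotted line of equal change. The 7 genes called in both lie near that line, most others keep the same sign with a smaller value in the other compound, and 2 circled genes passed the test of the difference.

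Most genes called here at D1 were also called with other chemicals. In the 8 chemicals of the 4 other control sets, which share no DMSO library with either antihistamine, 50 of cetirizine's 61 genes and 38 of fexofenadine's 40 were called in the same direction at D1 in at least 1 set, against 32.2% of all genes tested in both compounds called in either direction. In 3 or more sets it was 28 of cetirizine's 61 genes (45.9%), 23 of fexofenadine's 40 (57.5%) and 7 of the 7 shared genes, while 4.07% of all these genes were called in 3 or more sets in one direction. Rsub_04768 and Rsub_09770 were higher in 8 of the 8 other chemicals, with log2 fold changes between 0.57 and 1.68, and Rsub_00393 in 7 of 8. Rsub_01112 was lower in 6 of 8, whereas Rsub_12849 was lower in 4 and higher in 1. Rsub_12322, cetirizine's largest rise, was called higher in 0 of the 7 in which it was tested and lower in 1.

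Genes called in one compound at D1 mostly leaned the same way in the other. Of cetirizine's 30 higher genes at D1, 26 of the 29 measured in fexofenadine were above DMSO there, with a median log2 fold change of 0.24. Of its 31 lower genes 27 were below DMSO, with a median of −0.19. Fexofenadine's genes read in cetirizine gave 7 of 7 above DMSO (median 0.46) and 28 of 31 below it (median −0.25). Over all 9121 genes tested in both, 56.1% had the same sign at D1, and Pearson's r of the 2 log2 fold changes was 0.144 as a description across genes, which are not replicates.

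At D2 r was 0.0174, and from D3 to D7 it lay between 0.0476 and 0.0802. Of cetirizine's 13 higher genes at D2, 11 were above DMSO in fexofenadine D2 (median 0.22). Its 44 lower genes at D2 were below DMSO in 19 of 44 cases in fexofenadine D2 (median 0.007157), and in 38 of 44 in fexofenadine D1 (median −0.22). Fexofenadine's 32 lower genes at D1 had a median of −0.25 at cetirizine D1 and −0.43 at cetirizine D2. Whether D1 of one compound is closer in concentration to D1 or to D2 of the other is not given in the sources used here.

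Across levels the medians of the lists called lower differed between the compounds. In cetirizine the 31 genes lower at D1 kept medians between −0.25 and −0.45 from D2 to D7, with 28 or more of 31 below DMSO at each level, whereas the 30 higher genes had medians of 0.23 at D2, 0.12 at D3 and 0.02 to 0.08 from D4 on. In fexofenadine the 32 genes lower at D1 had a median of −0.82 there, −0.14 at D2 and 0.03 to 0.16 from D3 on. The 13 genes higher at cetirizine D2 had medians above 0 at every level of both compounds. These were 0.33 to 0.55 in cetirizine and 0.09 to 0.23 in fexofenadine, where 10 or more of the 13 were above DMSO at each level. All levels of a compound share the same 3 DMSO libraries, so values at the other levels are not independent of the calls at D1 or D2. DMSO A was the highest DMSO library in 22 of the 31 genes lower at cetirizine D1 (71.0%, against 36.0% of all genes). Its part in the medians was not tested. The medians of all genes tested lay between −0.00517 and 0.00657 over the levels of both compounds.

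**Figure D4:**
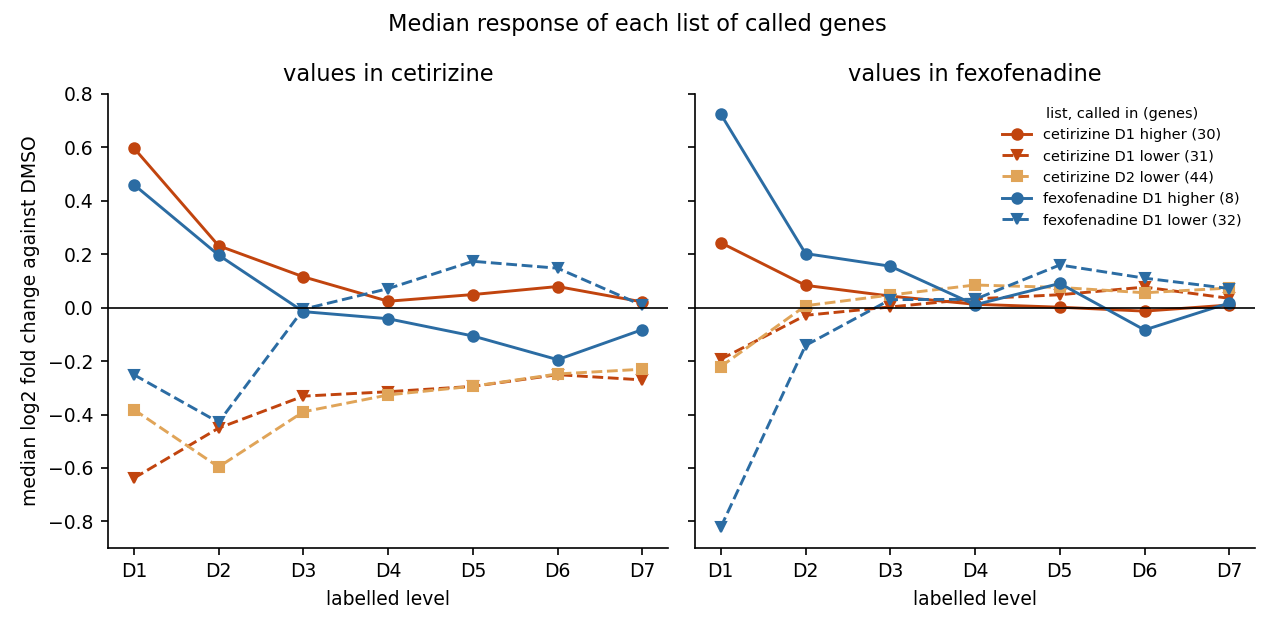
Median log2 fold change against DMSO (vertical axis) at levels D1 to D7 (horizontal axis) for 5 lists of genes called in one compound, read in cetirizine (left) and in fexofenadine (right), with the number of genes called in each list. The lists called lower in cetirizine stay below 0 at all 7 levels of cetirizine, and in fexofenadine they lie at −0.19 and −0.22 at D1 and near 0 from D2 on. The list of genes higher at cetirizine D2 is not drawn. All levels of a compound share the DMSO libraries used for its calls.

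The compounds were compared directly at the 7 matched labels, each against its own DMSO libraries, in one fit of 48 libraries and 9488 genes with p-values adjusted over genes and levels together. At D1 2 genes (0.0211%) differed between the compounds, at D2 1 gene (0.0105%), and at D3 to D7 edgeR called 0 (0%). Before adjustment 595, 790, 639, 661 and 444 genes had a p under 0.05 there, and DESeq2 made 0 calls. Over all levels together 4 genes (0.0422%) differed. A p that misses the threshold does not show that the compounds act alike. The 95% interval of the difference had a median half-width of 0.689 to 0.699 on the log2 scale, and it lay wholly within a 2-fold difference either way for 51.3% of genes at D1 and for 50.7% to 53.5% over the 7 levels.

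Of the 54 genes called at D1 in cetirizine and not in fexofenadine, 2 passed this direct test, and of the 33 called in fexofenadine and not in cetirizine 0 did. For 18 of the 54 and 21 of the 33, the 95% interval of the difference included 0. It lay apart from 0 for the other 36 and 12, and for 6.95% of all genes. Of cetirizine's 57 genes at D2, 1 passed, and the interval lay apart from 0 for 51, against 8.13% of all genes. These genes were chosen for their change in the same libraries, so the shares are a description.

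Both genes that differed at D1 were lower with cetirizine. Rsub_03879 had 922, 886 and 826 CPM at fexofenadine D1 against 1081, 987 and 941 CPM in DMSO, a log2 fold change of −0.19 ± 0.10, which set beside the cetirizine fall described above gave a difference of −3.17 (95% interval −4.39 to −1.96, adjusted p = 0.0440). Its DMSO level was far lower in set 7-8 than in set 9-10, by a log2 difference of −2.69. Rsub_04998 had 22.1, 17.0 and 24.1 CPM at cetirizine D1 against 44.8, 62.6 and 49.0 CPM in DMSO, and 239, 313 and 313 CPM at fexofenadine D1 against 201, 267 and 258 CPM. The cetirizine groups stood apart and the fexofenadine groups overlapped, and the difference was −1.57 (−2.16 to −0.97, adjusted p = 0.0440). Both differences lost their calls without any one of cetirizine's 3 D1 libraries or its DMSO A or C, with adjusted p between 0.0748 and 0.391, and no gene was called at D1 without fexofenadine D1 B or C or its DMSO B or C. Without cetirizine DMSO B or fexofenadine DMSO A 1 gene was called, and without fexofenadine D1 A Rsub_03879 had an adjusted p of 0.0614. Leaving out genes with a mean under 10 counts gave 0 calls, with adjusted p of 0.0599 for both genes.

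The gene that differed at D2 was Rsub_06175, named after its values were seen. It had 504, 285 and 477 CPM at cetirizine D2 against 1158, 716 and 705 CPM in DMSO, and 703, 717 and 594 CPM at fexofenadine D2 against 766, 535 and 595 CPM. Cetirizine D2 lay below its DMSO libraries without overlap, the fexofenadine groups overlapped, and the difference was −1.11 (−1.50 to −0.71, adjusted p = 0.0268). It was not called without cetirizine D2 B or DMSO A, where it was −0.89 and −0.83, nor without fexofenadine D2 A or B or DMSO B or C. The count at D2 was then 0, and 2 without cetirizine D2 A.

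The other 2 of the 4 genes called over all levels were Rsub_10133 and Rsub_08942, each with an adjusted p of 0.000843 and with no single level called. Rsub_10133 had 282, 349 and 313 CPM at cetirizine D1 against 183, 222 and 167 CPM in DMSO, and 146, 156 and 140 CPM at fexofenadine D1 against 149, 146 and 154 CPM. Its difference was 0.75 (95% interval 0.36 to 1.13) at D1 and −0.58 (−0.97 to −0.18) at D6. Rsub_08942, an abundant transcript, had 5306, 5182 and 5185 CPM at cetirizine D1 against 3630, 3934 and 3898 CPM, with a log2 fold change of 0.45 ± 0.07 (adjusted p = 3.44e-05), and −0.04 to −0.17 at D2 to D7. In fexofenadine its log2 fold changes were 0.10 to 0.13 at all 7 levels, and none was called. Without any one of cetirizine's 3 D1 libraries 2 genes were called over all levels.

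**Figure D5:**
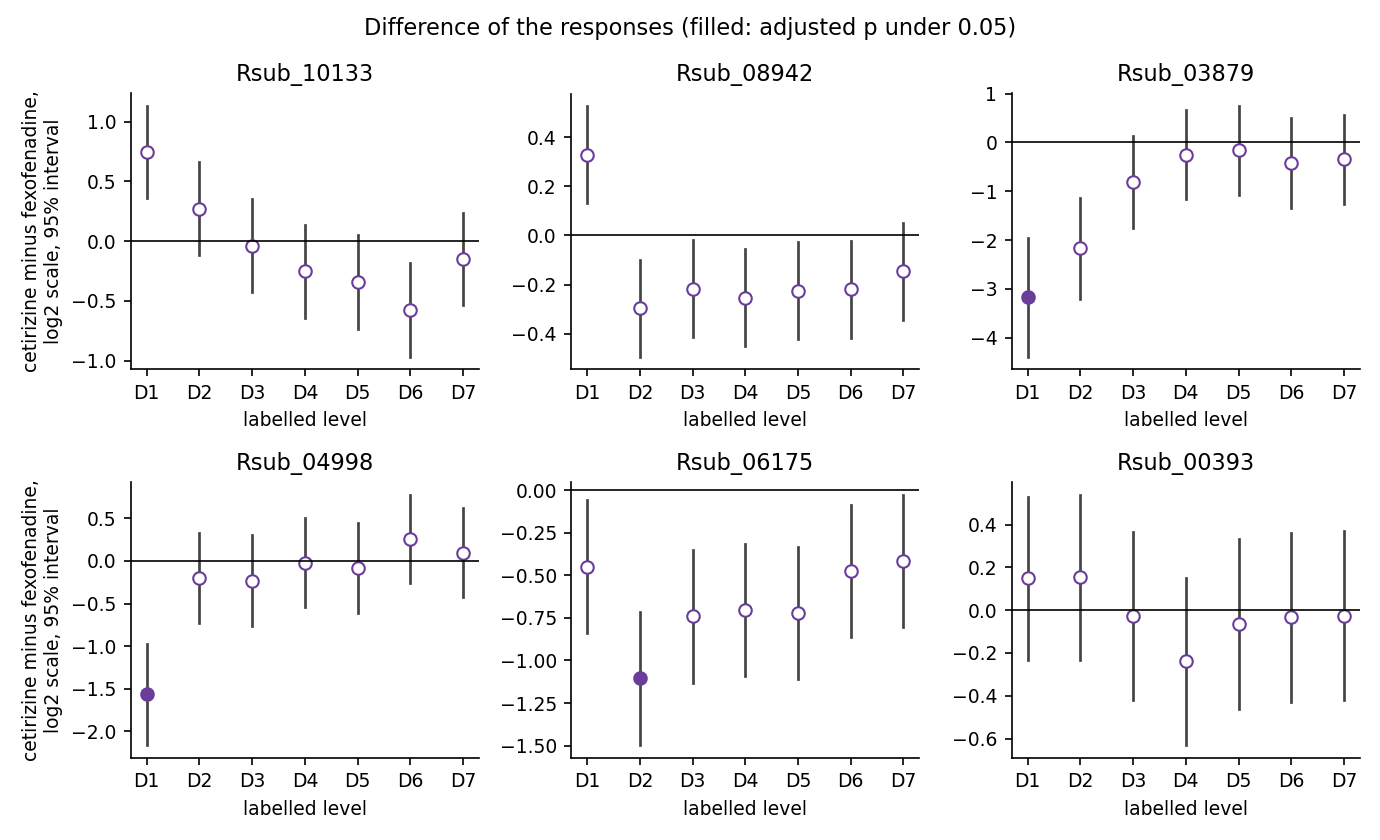
Difference in log2 fold change, cetirizine minus fexofenadine (vertical axis, with 95% interval), at levels D1 to D7 (horizontal axis) for the 5 genes called in the test of the difference and for Rsub_00393, called in both compounds. Filled points mark an adjusted p under 0.05, which are Rsub_03879 and Rsub_04998 at D1 and Rsub_06175 at D2, and the vertical scale differs between panels.

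The DMSO libraries of the 2 compounds differed from each other in 1878 of the 9488 genes (19.8%), 973 higher and 905 lower in set 7-8. Among cetirizine's 61 D1 genes the share was 40 (65.6%), among fexofenadine's 40 it was 24 (60.0%), and among the 7 shared genes 6. These lists were called against the same DMSO libraries, so the shares are a description. Rsub_00393, Rsub_09770, Rsub_04768 and Rsub_11267, all higher at D1 in both compounds, were higher in DMSO set 7-8 by 1.43 to 1.87 on the log2 scale, and Rsub_12849, lower at D1 in both, had a log2 difference of −1.79. Control set and compound cannot be told apart in these levels.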

How the data were processed

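The files hold raw counts per gene as deposited by the authors, 24 libraries in each compound's table, with columns mapped through the sample titles. The submitters' processing notes list STAR 2.7.10a, SAMtools 1.15.1, featureCounts 2.0.6 and fastp 0.23.2 without roles. The 3′ library kit carried molecular identifiers, per the labels' protocols. Genome build, annotation, strand setting and any collapsing by identifier are not given here. PCR copies may thus remain in the counts, and near-identical or overlapping genes may share reads. Replicates exceeded sampling noise, with chi-square per degree of freedom of 1.958 to 3.849 over 48 pairs, so all were kept as separate libraries. The DMSO columns recur in the table of the other chemical of a set, where 1 value of set 7-8 and 0 of set 9-10 differed.

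Each compound's 24 libraries were fitted with edgeR 4.0.16 in R 4.3.3 (filterByExpr, TMM, glmQLFit, 1 coefficient per group, glmQLFTest), per level and over all 7 levels, with Benjamini-Hochberg adjustment over the genes tested. The difference between compounds came from 1 fit of 48 libraries, adjusted over genes and levels together. Each SE was taken as the size of the log2 fold change over sqrt(F), and intervals cover 95%. The tests were also run on simulated counts drawn without any effect of the library letter, so that check does not cover such an effect. Alternatives were DESeq2 1.42.0, RLE scaling, low-count filters (none, or a mean of 10), a replicate block, a joint fit, adjustment within levels, and each library left out.

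Genes were named by rule, 2 higher and 2 lower in each class, with a mean count of 10 or more. The classes were the largest D1 changes among genes called at D1 and over all levels whose D1 and DMSO libraries did not overlap, the genes called at the most levels, the smallest p over all levels in the difference test, and genes called over all levels in both compounds. Compounds, members and rules were chosen with earlier results of these data known. No lists by function were used, because the files do not pair identifiers with names.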

Additional observations from a re-analysis of the deposited data

Results flagged for a closer look

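The results below stood out because the test of the difference between the compounds itself passed. At D1 the log2 fold change, cetirizine minus fexofenadine, was −3.17 for Rsub_03879 and −1.57 for Rsub_04998, and at D2 it was −1.11 for Rsub_06175. Of 18 alternative fits for each gene, the call was lost in 13 for Rsub_03879, 12 for Rsub_04998 and 6 for Rsub_06175. Over all 7 levels the adjusted p (edgeR, 48 libraries) was 0.0118 for Rsub_03879, 0.0123 for Rsub_04998, 0.000843 for Rsub_08942 and 0.000843 for Rsub_10133. Rsub_04998, like Rsub_03879, was also lower in DMSO set 7-8 than in set 9-10, by a log2 difference of −2.16. In the 8 chemicals of other control sets at D1, Rsub_03879 was called lower in 1, Rsub_04998 higher in 3, Rsub_06175 lower in 4, Rsub_10133 higher in 4 and Rsub_08942 higher in 3.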

How the results depend on the processing

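Counts of calls depended on the filter, the block and single libraries more than on the scaling. RLE scaling and the filter at a mean of 10 counts kept the counts within 1.5 times of those reported, except that this filter gave 0 calls for the difference at D1. With no filter on low counts cetirizine had 94, 99, 42, 84, 45, 29 and 5 genes called from D1 to D7 and 220 over all levels, fexofenadine 92, 4, 5, 24, 10, 8 and 5 and 209, and the difference 6, 10, 1, 2, 1, 2 and 0 and 51, with 62 genes called over all levels in both compounds. DESeq2 gave 90, 104, 53, 75, 54, 18 and 2 for cetirizine and 163 over all levels, 1 for fexofenadine at D5 and 109 over all levels, 23 in both and 15 for the difference over all levels. One fit of both compounds gave fexofenadine 10 at D1 and cetirizine 45, 26, 5 and 0 at D4 to D7. Adjustment within each level gave 3 for the difference at D1.

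With the replicate letter as a block (replicate block) cetirizine had 112, 126, 60, 98, 67, 23 and 6 genes from D1 to D7 and 219 over all levels, fexofenadine 208, 9, 21, 113, 35, 29 and 7 and 439, the difference 16, 23, 5, 21, 5, 9 and 0 and 91, and both compounds shared 26 at D1 and 98 over all levels. Fexofenadine then had more calls than cetirizine at D1, D4, D6 and D7. The labels do not say that a letter marks a shared batch. Deviations of same-letter libraries correlated by a mean of 0.036 in cetirizine (3 of 84 pairs over 0.1) and 0.153 in fexofenadine (62 of 84), and 22 and 24 of 24 libraries correlated best with their own letter, which is a hint from the data only.

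Leaving out each library in turn gave between 21 and 69 genes for cetirizine at D1, 2 and 78 at D2, 3 and 34 at D3, 7 and 45 at D4, 4 and 32 at D5, 0 and 16 at D6, 1 and 2 at D7, and 60 and 123 over all levels. Fexofenadine gave 1 to 52 at D1, 0 at D2, D6 and D7, 0 to 1 at D3 and D5, 0 to 2 at D4, and 19 to 79 over all levels. The difference gave 0 to 2 at D1 and at D2 and 2 to 5 over all levels, calls in both compounds 1 to 7 at D1 and 3 to 15 over all levels, and the DMSO sets 1384 to 1676. For the difference, libraries of D3 to D7 were not left out. Counts of calls in both compounds under each setting, splits by direction and the single fit at D2 to D7 were chosen after seeing the data. The 27 named gene results gave 354 values under these alternatives. Of these 279 kept their direction and stayed called or uncalled as before, 74 lost the call, 1 gained it and 0 turned. The 279 include 18 values of Rsub_10133 and 17 of Rsub_08942, whose D1 differences were not called to begin with. The cause was not tested.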

Other observations

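Of the 57 genes called at cetirizine D2, 20 (35.1%) were called in the same direction at D1 in 3 or more of the 4 other control sets and 17 (29.8%) in none. Of cetirizine's 61 genes at D1, 11 (18.0%) were called in none, and 16 genes were called at both levels. Of fexofenadine's 40 genes at D1, 2 (5.00%) were called in none. Of all 9121 genes tested in both compounds, 67.8% were called in none in either direction. The difference between these shares was not tested. Rsub_12322, cetirizine's largest rise at D1, ranged in log2 fold change from −6.16 to 0.84 over the 7 chemicals of other control sets in which it was tested. Rsub_10428, lower at D1 in fexofenadine, was tested in 7 chemicals of other control sets and called in 0. Its log2 fold changes there ran from −1.55 to 0.59. With cis-nonachlordane, which shares fexofenadine's DMSO libraries, it was called lower at D1 (log2 fold change −1.93, edgeR adjusted p = 0.0208). With fipronil carboxamide, which shares cetirizine's, it was not called (−1.12).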
